A study of Homo sapiens with 6 samples.

Results

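The genes described here are 34 genes for tubulins and for the proteins that fold, assemble or bind tubulin, out of 60683 gene rows in the count table and 15846 genes tested. They were picked by function: 4 alpha-tubulin genes, 6 beta-tubulin genes, the gamma-tubulin gene TUBG1, the 8 subunits of the CCT chaperonin, 6 prefoldin subunits, 5 tubulin cofactors, and 4 genes for tubulin mRNA decay or binding. All 34 have a row and all 34 passed the filter on low counts. The choice was made with earlier results of the same comparison known, so their differences between groups are a description and support nothing by themselves.

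RNA was sequenced from 143B cells, an established thymidine kinase-deficient human osteosarcoma line. The labels name this line for every sample, although the extraction text speaks of animal tissue. There were 3 libraries from cells given TPBC-PEG for 24 h and 3 from cells given PBS for 24 h, all grown in DMEM with serum. The series title speaks of photodynamic therapy and Hippo signalling. The dose is not settled, since the sample titles state 3 µM TPBC-PEG but the protocol text has 300 µM. The design text names TPBC-PEG and photodynamic treatment together, while no sample label mentions light. All libraries come from 1 cell line, and nothing in the labels says that replicates were separate cultures, so errors and calls reflect the spread between these libraries, which may be technical.

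Microtubules are built from dimers of alpha- and beta-tubulin, and gamma-tubulin nucleates them. A new tubulin chain is passed by prefoldin to CCT, a ring-shaped cytosolic chaperonin that also folds actin, and the tubulin cofactors then join alpha to beta. Cells also sense free tubulin dimers: when dimers are in excess, TTC5 binds the first residues of a tubulin chain as it leaves the ribosome, and the mRNA being translated is degraded. The residues read are methionine, arginine and glutamate, then cysteine in alpha-tubulin or isoleucine in beta-tubulin.

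The coding starts of the 11 tubulin mRNAs are shown because this recognition reads the first residues of alpha- and beta-tubulin; TUBG1, which does not begin with those residues, is given for comparison. Each is the first 30 coding bases of the principal GENCODE 29 transcript, read 5′ to 3′, with the first 4 codons in capitals.
TUBA1A: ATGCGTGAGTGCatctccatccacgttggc
TUBA1B: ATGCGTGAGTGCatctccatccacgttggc
TUBA1C: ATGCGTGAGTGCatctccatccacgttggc
TUBA4A: ATGCGTGAATGCatctcagtccacgtgggg
TUBB: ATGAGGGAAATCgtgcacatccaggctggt
TUBB2A: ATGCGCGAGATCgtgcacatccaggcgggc
TUBB2B: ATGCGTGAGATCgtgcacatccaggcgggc
TUBB3: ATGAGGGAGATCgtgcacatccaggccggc
TUBB4B: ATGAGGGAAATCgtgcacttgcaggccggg
TUBB6: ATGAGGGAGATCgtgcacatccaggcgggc
TUBG1: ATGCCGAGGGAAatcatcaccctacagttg
The 30 bases are the same in TUBA1A, TUBA1B and TUBA1C. The 4 alpha-tubulin genes hold 2 forms of the first 4 codons and the 6 beta-tubulin genes 4 forms, while TUBG1 has a form of its own. TUBB and TUBB4B share one form, and TUBB3 and TUBB6 share another.

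Library totals ran from 15726323 to 20486584 counts. Of 11 mesenchymal and osteoblast markers, 7 were at 1 CPM (counts scaled to library size by TMM) or more in every library, and COL1A2, BGLAP, IBSP and SP7 were under 1 CPM in all. The sum of the 11 ran from 2803 to 2934 CPM with TPBC-PEG and from 3192 to 3242 CPM with PBS. VIM made up most of that sum, and RUNX2 and SPP1 went the other way, with 24.1 to 27.2 and 29.9 to 31.9 CPM with TPBC-PEG, against 15.9 to 19.1 and 16.1 to 19.0 CPM with PBS. Blood and endothelial markers, 3 and 2 genes, were under 1 CPM throughout. Of 4 epithelial markers CDH1 was under 1 CPM, and the sum of the 4 ran from 679 to 742 CPM with TPBC-PEG and from 902 to 942 CPM with PBS. KRT18 made up most of that sum, with 542 to 603 CPM with TPBC-PEG and 747 to 783 CPM with PBS, and KRT8 was lower too. EPCAM values overlapped, at 16.2 to 17.5 CPM with TPBC-PEG and 15.1 to 17.7 CPM with PBS. The part of these markers in the tubulin results was not tested. In bulk RNA, fewer cells of a kind and less RNA per cell cannot be told apart.

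With TPBC-PEG 8 of 11 tubulin mRNAs and all 8 CCT mRNAs were lower, while 4 of 6 prefoldin and 4 of 5 cofactor mRNAs did not pass the test. TUBA4A fell by 34.7% and TUBB4B fell by 32.8%. TUBA1A and PFDN2 were higher. Of the 34 genes, 19 were called lower and 2 higher, that is, at an adjusted p under 0.05 over all genes tested (edgeR quasi-likelihood test, Benjamini-Hochberg adjustment). Among all 15846 genes tested, 16.9% were called lower and 16.2% higher, and nothing is read from the contrast because the genes were chosen with it known. Below, "fell" and "rose" are used of called genes. The median log2 fold change was -0.17 over the 34 genes and 0.011 over all genes tested. In 20 genes all TPBC-PEG values lay below all PBS values and in 2 they lay above, against 21.4% and 22.1% of all genes tested, or 43.4% with no overlap in either direction. Together the 34 genes took 1.04% ± 0.0131 of all counts with TPBC-PEG and 1.23% ± 0.0175 with PBS (mean ± SD, n = 3).

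**Figure D1:**
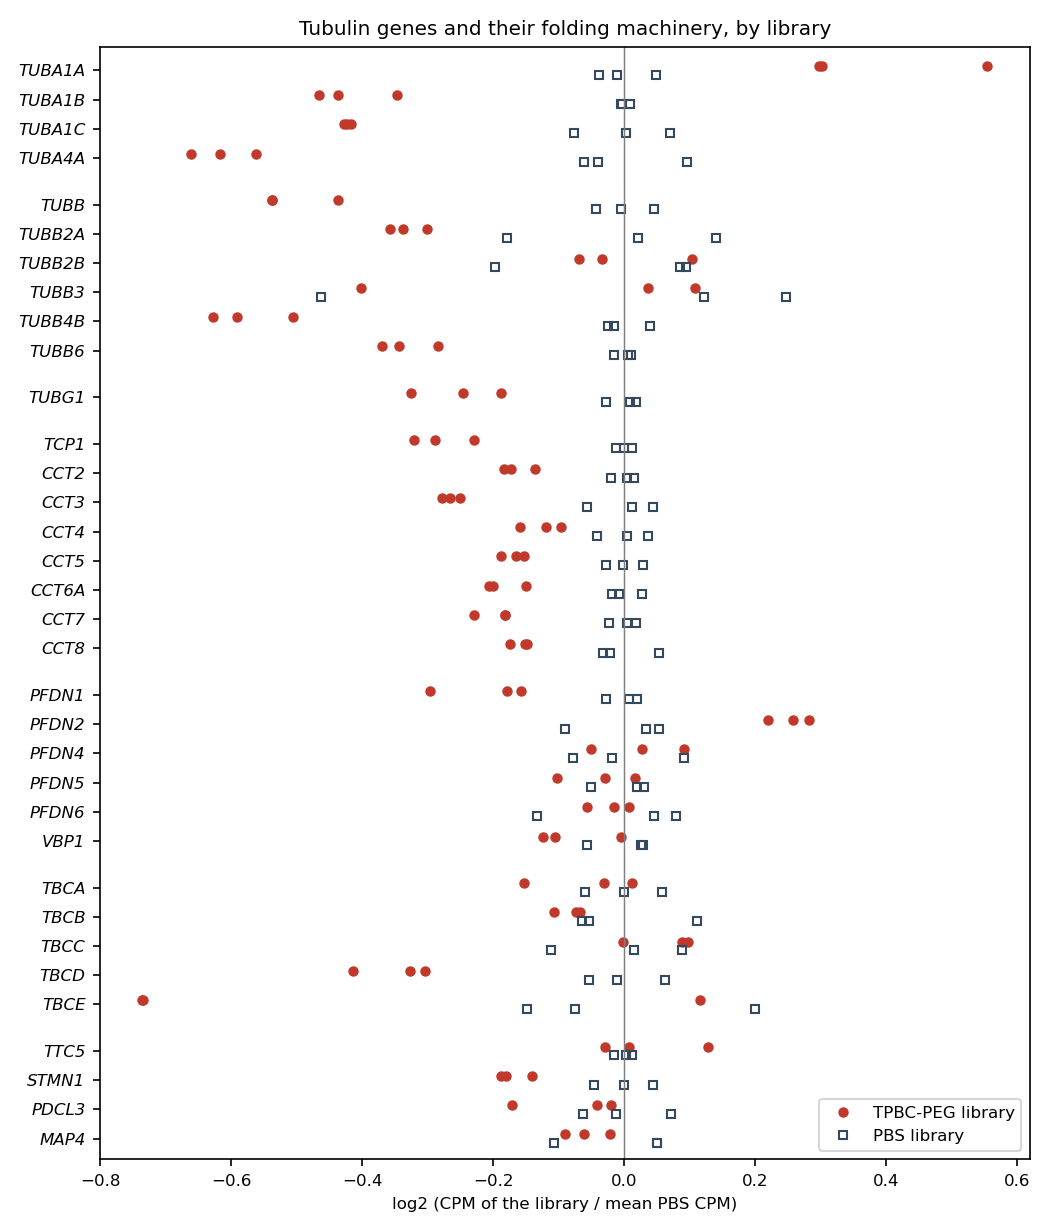
Each point is 1 library, plotted as the log2 ratio of its CPM to the mean PBS CPM of that gene, with TPBC-PEG as filled circles and PBS as open squares. The 8 CCT genes lie in a narrow band left of 0, most alpha- and beta-tubulins lie farther left, and TUBA1A and PFDN2 lie to the right.

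Alpha-tubulin mRNA came mainly from 2 genes, TUBA1B and TUBA1C, and both fell by about the same proportion. TUBA1B (chr12:49127782-49131397) had 1230.5, 1254 and 1335 CPM with TPBC-PEG, against 1693, 1709 and 1695 CPM with PBS. Its log2 fold change was -0.42 ± 0.037 (SE, from the fit). TUBA1C (chr12:49188736-49274603) had 670.15, 675 and 673 CPM with TPBC-PEG, against 855, 946 and 904 CPM with PBS. In both genes the groups were well apart, and TUBA1C stood at -0.42 ± 0.037 on the log2 scale. TUBA4A, on chromosome 2, is the alpha-tubulin whose gene does not encode a final tyrosine. It had 29.3, 27.4 and 28.2 CPM with TPBC-PEG, against 42.1, 46.3 and 41.5 CPM with PBS. It fell by 34.7%, the largest fall among the called genes of the 34.

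TUBA1A (chr12:49184796-49189324), the isotype best known from developing neurons, was the alpha-tubulin that went the other way. It had 22.87, 27.3 and 22.95 CPM with TPBC-PEG, against 19.2, 18.1 and 18.5 CPM with PBS. All TPBC-PEG values were above all PBS values, the second replicate the most, and the log2 fold change was 0.39 ± 0.084. TUBA1A is a minor transcript: per kilobase of transcript it gave 1.23% ± 0.143 of alpha-tubulin mRNA with TPBC-PEG and 0.708% ± 0.0322 with PBS (n = 3). TUBA1B gave 75.8% ± 0.812 with TPBC-PEG and 76.0% ± 0.786 with PBS. The coding bases of TUBA1A are 97.2% identical to those of TUBA1B and 96.3% to those of TUBA1C. The handling of reads that match several genes is not given in the sources used here, so counts within this trio are uncertain, above all those of the rare TUBA1A. TUBA1A also shares 14.3% of its exon length with TUBA1C on the opposite strand, and no source used here says if counting took strand into account.

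Of the 6 beta-tubulin genes 4 fell, while 16.9% of all genes tested were called lower. Among the 4 was TUBB, the beta-tubulin with the highest level per kilobase. TUBB (chr6:30720201-30725426) had 1614, 1614 and 1732 CPM with TPBC-PEG, against 2275, 2419 and 2337 CPM with PBS. Its log2 fold change was -0.50 ± 0.037. TUBB4B, a widely expressed isotype that is also found in cilia, had 268, 275 and 291 CPM with TPBC-PEG, against 409, 425 and 407 CPM with PBS. The groups did not overlap in either gene, and TUBB4B stood at -0.57 ± 0.038. TUBB6, an isotype with a divergent tail found in many non-neuronal cells, had 391, 384 and 407 CPM with TPBC-PEG, against 491, 499.6 and 498 CPM with PBS. It fell by 20.6%, less than TUBB and TUBB4B.

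The remaining beta-tubulin genes had low counts. TUBB2A had 7.76, 7.57 and 7.46 CPM with TPBC-PEG, against 10.5, 9.70 and 8.45 CPM with PBS. It was called lower at -0.34 ± 0.12, and this call was lost in 8 of 17 alternative settings, among them without any one of PBS replicates 1 and 2 or of the TPBC-PEG replicates. TUBB2B averaged 32.3 ± 2.08 CPM with TPBC-PEG and 32.3 ± 3.56 CPM with PBS (SD, n = 3). It was not called, and its values overlapped. TUBB2A and TUBB2B are neighbouring copies on chromosome 6 with 98.2% identical coding bases, so the split of reads between them is uncertain. TUBB3, the isotype used as a neuronal marker, stood at 1.17 ± 0.21 CPM with TPBC-PEG and 1.22 ± 0.297 CPM with PBS, from 17 to 26 counts per library, and was not called. TUBB3 shares 35.8% of its exon length with AC092143.1, a gene on the same strand. That gene shares 100% of its own exon length and held 0 counts in every library. The handling of reads in shared exons is not given, so the level of TUBB3 is uncertain. TUBG1, which nucleates microtubules at centrosomes, fell by 16.1%, with 78.6, 74.4 and 81.9 CPM with TPBC-PEG, against 91.5, 93.8 and 94.5 CPM with PBS.

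Set per kilobase of the principal transcript, the PBS levels of the 10 alpha- and beta-tubulin genes spanned from 1044 ± 5.35 CPM per kb for TUBA1B to 0.691 ± 0.168 CPM per kb for TUBB3 (SD, n = 3). In descending order with PBS they ran TUBA1B, TUBB, TUBA1C, TUBB4B, TUBB6, TUBA4A, TUBB2B, TUBA1A, TUBB2A and TUBB3. No neighbours in that order overlapped in their PBS values, but the order itself rests on the length used, as given below. The place of TUBB3 also rests on a count made uncertain by shared exons. With TPBC-PEG the level of TUBA1B was 782.7 ± 33.8 CPM per kb and that of TUBB 619 ± 25.5, against 1044 ± 5.35 and 878 ± 27.0 CPM per kb with PBS. The level of TUBB6 was 191 ± 5.83 CPM per kb with TPBC-PEG and 240.4 ± 2.24 with PBS, while TUBB4B stood at 169.85 ± 7.40 with TPBC-PEG and 253 ± 6.02 with PBS. By this length TUBB6 stood above TUBB4B with TPBC-PEG and below it with PBS. With all annotated exons as the length, TUBB6 was below TUBB4B in both groups, at 95.7 ± 2.92 against 132 ± 5.74 CPM per kb with TPBC-PEG and 120.5 ± 1.12 against 196 ± 4.67 with PBS. By that length the PBS order was TUBB, TUBA1B, TUBB4B, TUBA1C, TUBB6, TUBB2B, TUBA4A, TUBB2A, TUBA1A and TUBB3, so 4 neighbouring pairs changed places. TUBB, at 698 ± 21.5 CPM per kb with PBS, was above TUBA1B, at 475 ± 2.44, and TUBB2B, at 14.7 ± 1.62, was above TUBA4A, at 10.6 ± 0.635. In the other pairs the PBS values overlapped, with TUBB4B at 196 ± 4.67 and TUBA1C at 195 ± 9.81, and TUBB2A at 5.54 ± 0.608 and TUBA1A at 5.44 ± 0.168. The PBS share of TUBA1B was 69.3% of alpha-tubulin mRNA in place of 76.0%.

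**Figure D2:**
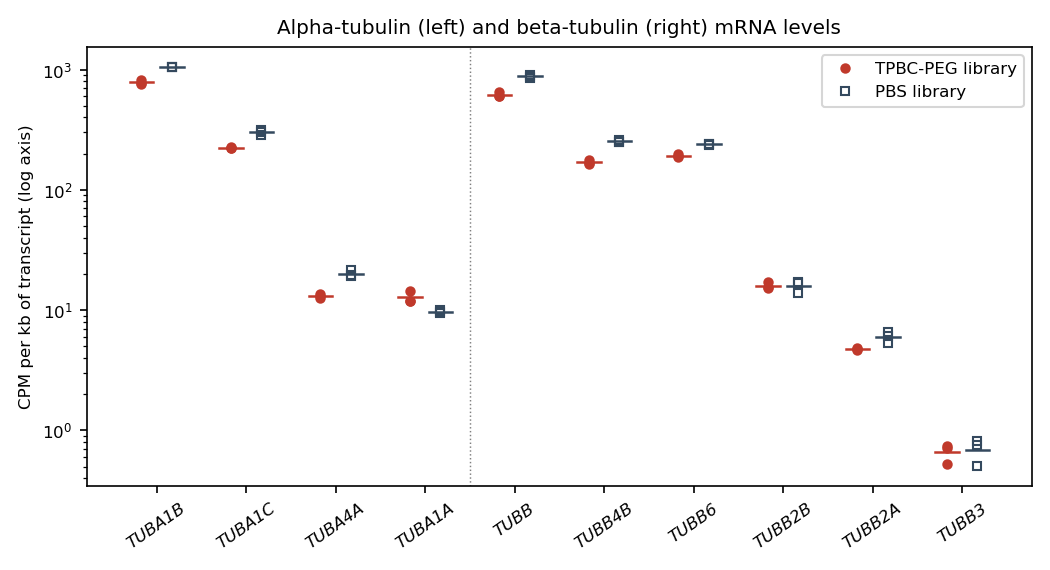
Levels of the 4 alpha-tubulin genes (left of the dotted line) and 6 beta-tubulin genes (right) in CPM per kilobase of transcript on a log axis, with 1 point per library and a bar at each group mean. Length is that of the principal transcript; TUBA1B and TUBB lead their families in both groups, and TUBA1A and TUBB2B are the genes whose TPBC-PEG mean is not below the PBS mean.

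Summed over the genes of each family, alpha- and beta-tubulin mRNA moved almost in parallel. The alpha-tubulin sum was 1953, 1985 and 2059 CPM with TPBC-PEG, against 2609.5, 2719 and 2659 CPM with PBS. The beta-tubulin sum was 2313, 2312 and 2474 CPM with TPBC-PEG, against 3221, 3383 and 3286 CPM with PBS. Neither sum overlapped between groups, and the differences were -24.9% for alpha and -28.2% for beta. Per kilobase, the ratio of alpha to beta was 1.03 ± 0.0119 with TPBC-PEG and 0.986 ± 0.00804 with PBS (SD, n = 3), and the values of the groups did not overlap. With all exons as the length this ratio was 0.698 ± 0.00952 with TPBC-PEG and 0.663 ± 0.00404 with PBS, again with no overlap. Within beta-tubulin, TUBB gave 61.8% ± 0.122 of the mRNA per kilobase with TPBC-PEG and 63.0% ± 0.481 with PBS. TUBB6 gave 19.1% ± 0.256 with TPBC-PEG and 17.3% ± 0.268 with PBS, and TUBB2B gave 1.60% ± 0.0425 with TPBC-PEG and 1.15% ± 0.15 with PBS.

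All 8 CCT genes fell: CCT4 fell by 8.26%, TCP1 fell by 17.6% and the other 6 lay between, and in all 8 the TPBC-PEG values lay below every PBS value. Of all genes tested 16.9% were called lower, and 21.4% had all TPBC-PEG values below all PBS values. All 8 were above 100 CPM with PBS, and of all genes at that level or more 44.8% were called lower. TCP1 encodes subunit alpha of the ring and had 415, 389 and 398 CPM with TPBC-PEG, against 482, 486 and 490.3 CPM with PBS. It led the family with a log2 fold change of -0.28 ± 0.036. CCT3 encodes subunit gamma, with 347, 344 and 350.4 CPM with TPBC-PEG, against 401, 420.2 and 429.5 CPM with PBS, and stood at -0.26 ± 0.037. CCT7 encodes subunit eta and fell to 396 ± 7.47 CPM with TPBC-PEG, against 454 ± 6.75 CPM with PBS. These 3 subunits stayed called in every one of the 17 alternative settings.

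The other 5 CCT genes fell less, and each lost its call in 1 or 2 settings. Differences between subunits were not tested, and CCT6A, at -0.19 ± 0.036, lay close to CCT7, at -0.20 ± 0.036. CCT5, subunit epsilon, had 1086, 1069 and 1095 CPM with TPBC-PEG, against 1195, 1217 and 1242 CPM with PBS. CCT6A, subunit zeta, had 896, 865 and 862 CPM with TPBC-PEG, against 988, 981 and 1013 CPM with PBS. The log2 fold change was -0.17 for CCT5, -0.19 for CCT6A, -0.16 for both CCT2 (subunit beta) and CCT8 (subunit theta), and -0.12 for CCT4 (subunit delta). When a smooth trend of fold change with expression level was removed, none of these 5 was called, while TCP1, CCT3 and CCT7 still were, and the values were -0.053, -0.077, -0.086, -0.071 and -0.041 for CCT5, CCT6A, CCT2, CCT8 and CCT4. TCP1, CCT3 and CCT7 also moved towards 0, to -0.195, -0.183 and -0.115. So did TUBB (-0.369), TUBB4B (-0.496), TUBA1B (-0.292), TUBA1C (-0.321) and TUBB6 (-0.248), which stayed called. The rarer TUBA4A (-0.618) and TUBB2A (-0.398) did not move towards 0. CCT4 also lost its call with library size alone (-0.080). Abundant genes as a class were lower in these libraries: of 2285 genes at 100 CPM or more with PBS, a bound chosen after the values were seen, 44.8% were called lower, and the median log2 fold change was -0.081. Of the 19 tubulin and folding genes above that bound, 14 were called lower.

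**Figure D3:**
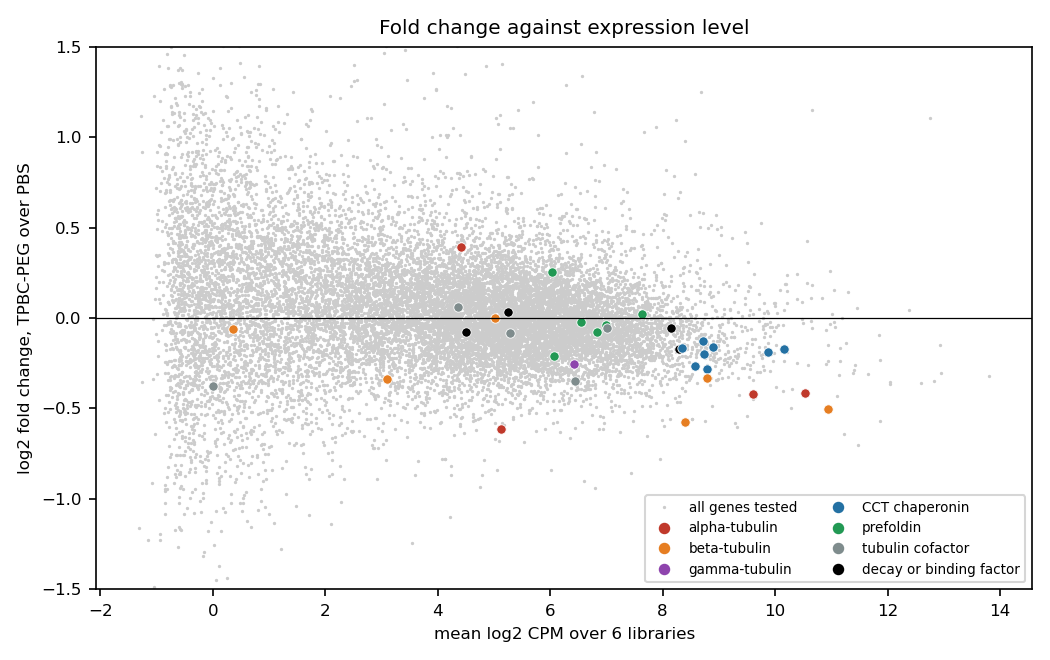
Log2 fold change (TPBC-PEG over PBS) against mean log2 CPM for all 15846 genes tested (grey) and for the 34 genes coloured by family; 106 grey genes lie beyond ±1.5. The cloud bends below 0 at high expression, the CCT genes lie at or below that bend, and TUBB, TUBB4B, TUBA1B and TUBA1C lie below it.

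One CCT ring takes its 8 kinds of subunit in equal numbers, and their mRNA levels could be set against each other per kilobase. The highest subunit mRNA, CCT6A, exceeded the lowest, CCT2, 2.14-fold ± 0.0647 with TPBC-PEG and 2.17-fold ± 0.0313 with PBS (SD, n = 3). With all exons as the length these ratios were 3.15 ± 0.0955 with TPBC-PEG and 3.20 ± 0.0463 with PBS. CCT6A made up 19.1% ± 0.224 of CCT mRNA per kilobase with TPBC-PEG and 19.1% ± 0.155 with PBS, and CCT2 made up 8.96% ± 0.215 with TPBC-PEG and 8.80% ± 0.0797 with PBS. The share of TCP1 was 9.54% ± 0.214 with TPBC-PEG and 10.2% ± 0.0973 with PBS. The CCT sum was 4263 ± 44.8 CPM with TPBC-PEG and 4856 ± 84.9 CPM with PBS, a difference of -12.2%. Whether the CCT and tubulin changes differ from each other was not tested.

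The prefoldin subunits, which carry new tubulin and actin chains to CCT, did not move together. PFDN2 rose, with 72.9, 71.7 and 69.9 CPM with TPBC-PEG, against 62.2, 56.4 and 61.4 CPM with PBS. Its log2 fold change was 0.25 ± 0.053 and its groups did not overlap. PFDN1 fell, with 63.7, 58.7 and 64.7 CPM with TPBC-PEG, against 70.7, 72.5 and 73.1 CPM with PBS, at -0.21 ± 0.0525. PFDN4, PFDN5, PFDN6 and VBP1, which encodes prefoldin subunit 3, were not called, and the TPBC-PEG and PBS values of each overlapped. PFDN4 averaged 200.8 ± 9.88 CPM with TPBC-PEG and 198 ± 11.9 with PBS, and PFDN5 125 ± 5.24 with TPBC-PEG and 129 ± 3.93 with PBS. PFDN6 averaged 92.4 ± 2.05 CPM with TPBC-PEG and 93.8 ± 7.26 with PBS. VBP1 averaged 111 ± 5.00 CPM with TPBC-PEG and 117 ± 3.94 with PBS. The prefoldin sum was 664 ± 12.7 CPM with TPBC-PEG and 669 ± 22.0 CPM with PBS.

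Of the tubulin cofactors, TBCD fell. TBCD binds beta-tubulin and helps to form and take apart the dimer, and it had 77.6, 73.1 and 78.9 CPM with TPBC-PEG, against 93.8, 101.7 and 96.7 CPM with PBS. Its groups did not overlap and its log2 fold change was -0.35 ± 0.049. TBCA, which holds beta-tubulin after CCT, averaged 127 ± 7.41 CPM with TPBC-PEG and 132 ± 5.42 with PBS and was not called. TBCB, which holds alpha-tubulin, had 37.1, 38.1 and 37.9 CPM with TPBC-PEG, against 43.1, 38.2 and 38.5 CPM with PBS. All TBCB values with TPBC-PEG were below those with PBS, by a margin smaller than the spread of the PBS values, and it was not called. TBCC, which triggers release of the finished dimer, averaged 20.8 ± 0.782 CPM with TPBC-PEG and 19.96 ± 1.39 with PBS and was not called. TBCE, the partner of alpha-tubulin in dimer assembly, was not called and its level is uncertain. Its row (ENSG00000284770) held 10 to 22 counts per library, and an overlapping row that GENCODE 29 also names TBCE (ENSG00000285053) held 62, 62 and 47 counts with TPBC-PEG, against 52, 37 and 25 counts with PBS. The first row stood at -0.37 ± 0.37 on the log2 scale with overlapping groups, and for the second only raw counts are given here, so no direction is read from either.

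TTC5, the factor that marks tubulin mRNAs for decay, was not called, at 38.6 ± 2.23 CPM with TPBC-PEG and 37.6 ± 0.369 CPM with PBS (SD, n = 3). STMN1, stathmin, which sequesters tubulin dimers, fell, with 299.7, 292 and 290.1 CPM with TPBC-PEG, against 330.5, 320.1 and 341 CPM with PBS. Its log2 fold change was -0.17 ± 0.037. MAP4, the main microtubule-stabilising protein of non-neuronal cells, averaged 277 ± 6.61 CPM with TPBC-PEG and 288 ± 17.8 CPM with PBS. It was not called, and it was called lower, at -0.115, without PBS replicate 1, its lowest PBS value. PDCL3, a phosducin-like co-factor of CCT, averaged 22.1 ± 1.24 CPM with TPBC-PEG and 23.3 ± 1.10 CPM with PBS and was not called.

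**Figure D4:**
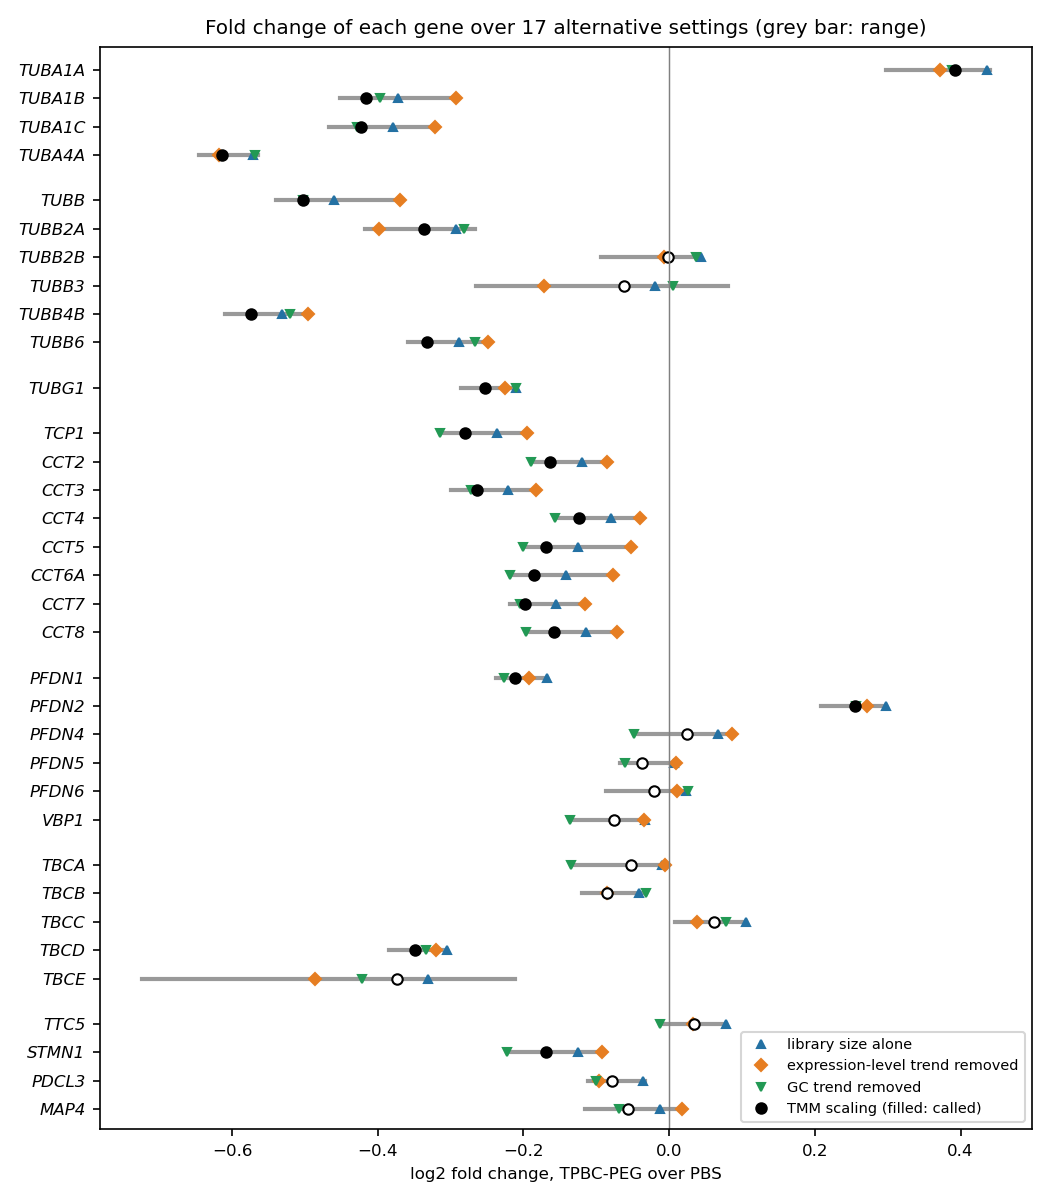
Log2 fold change of each gene with TMM scaling (circle, filled where called), with 3 other settings (triangles and diamonds), and the range over 17 alternative settings (grey bar). TUBA1B, TUBA1C, TUBA4A, TUBB, TUBB4B and TUBB6 stay left of 0 and TUBA1A and PFDN2 right of 0 in every setting. All CCT genes and TUBA1B, TUBA1C, TUBB, TUBB4B and TUBB6 have their value nearest 0 with the expression-level trend removed.

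Other microtubule genes were read from 7 lists drawn up by function, 102 genes in all, of which 92 were tested. Of these 14 rose and 16 fell, so 32.6% were called, against 33.2% of all genes tested, and their median log2 fold change was near 0. The split was 17 higher and 12 lower with library size alone, and 9 higher and 17 lower with DESeq2 size factors. All genes tested shifted too, with 3213 higher and 1971 lower with library size alone. With DESeq2 size factors they were 2492 higher and 2807 lower. The number of higher calls was unstable: it was 7 with the DESeq2 test, 8 without TPBC-PEG replicate 2, 8 without TPBC-PEG replicate 3 and 7 without PBS replicate 3. In the same order, higher calls among all genes tested were 1978, 1987, 2347 and 2238, against 2574 in the main fit.

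Among 5 further tubulin genes that were tested, TUBE1 rose and TUBB4A fell (40.0% called, against 33.2% of all genes tested). TUBE1, epsilon-tubulin of the centriole, had 41.2, 41.0 and 36.6 CPM with TPBC-PEG, against 24.0, 26.1 and 23.3 CPM with PBS, a log2 fold change of 0.70 ± 0.071. TUBB4A had 6.99, 6.03 and 8.78 CPM with TPBC-PEG, against 9.70, 10.7 and 10.8 CPM with PBS. The groups did not overlap in either gene. TUBA3C, TUBA3D, TUBA3E, TUBA8, TUBB1 and TUBB8 did not pass the filter, with at most 5 counts in a library. Of 12 genes of the gamma-tubulin ring complex and its recruiters, 1 rose and 3 fell (33.3% called, against 33.2% of all genes tested). AKAP9, a large scaffold that anchors these complexes at the Golgi and centrosome, stood at 0.31, TUBGCP4, a ring subunit, at -0.28, and MZT2A, a small ring component, at -0.23, a call lost in 7 of the 17 settings.

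Of 12 genes for the later steps of tubulin mRNA decay, 4 rose and 1 fell, so 41.7% were called, against 33.2% of all genes tested. CNOT6L, a deadenylase of the CCR4-NOT complex, had 49.2, 50.7 and 53.7 CPM with TPBC-PEG, against 39.8, 34.4 and 37.1 CPM with PBS, a log2 fold change of 0.46 ± 0.063. CNOT8, another deadenylase of that complex, rose by 0.26 and CNOT9, one of its structural subunits, stood at -0.14, a call lost in 3 of the 17 settings. SCAPER and CNOT11, which link TTC5 to the complex, were not called. Of 9 relatives of prefoldin and CCT cofactors none was called, among them URI1, at 95.1 ± 2.78 CPM with TPBC-PEG and 95.8 ± 4.72 with PBS, and TXNDC9, at 76.0 ± 1.40 with TPBC-PEG and 78.0 ± 5.22 with PBS (SD, n = 3).

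Of 22 tubulin modification enzymes 1 rose and 1 fell, so 9.09% were called, against 33.2% of all genes tested. AGTPBP1, a deglutamylase that trims tubulin tails, stood at 0.22, a call lost without TPBC-PEG replicate 2, and TTLL12, a tubulin ligase-like protein, at -0.32. Of 21 microtubule-binding and end-binding genes 5 rose and 5 fell (47.6% called, against 33.2% of all genes tested). MAP1B, a microtubule-associated protein abundant in neurons, had 311, 324 and 317 CPM with TPBC-PEG, against 209, 200.4 and 229 CPM with PBS, a log2 fold change of 0.58 ± 0.041. CLIP1, a plus-end protein, rose by 0.26, while MAP7D3 and DCLK1, both microtubule-binding proteins, stood at -0.37 and -0.50. DCLK1 was not called without PBS replicate 1, at -0.32. Of 11 severing and destabilising genes 2 rose and 5 fell (63.6% called, against 33.2% of all genes tested). KIF18B, a kinesin that shortens mitotic microtubules, and STMN3, a stathmin relative, stood at -0.47 and -0.40, and the severing enzymes FIGN and SPAST at 0.20 and 0.17, calls lost in 4 and in 10 of the 17 settings.

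Of the 34 genes, 14 share over 10% of their exon length with another annotated gene, most often on the opposite strand. TUBB, TUBA1B, TUBA1C and CCT5 each overlap an antisense gene. Those antisense genes held 0 to 3, 7 to 19, 0 to 7 and 0 to 1 counts per library, against at least 10729 counts in each of the 4 genes. Of their own exon length, 69.6%, 80.2%, 97.9% and 68.9% is shared with other genes. The handling of reads in shared exons is not given in the sources used here. These low counts therefore cannot show what the overlap did to the 4 genes. TUBA4A shares 18.1% of its exon length with STK16 and TUBA4B, and TUBB6 shares 20.3% with AFG3L2. Of the 20 genes with 10% or less overlap, 11 were called lower and 1 higher, and of the other 14, 8 were called lower and 1 higher. Of all genes tested 16.9% were called lower and 16.2% higher. The part of overlap in these calls was not tested. Pseudogenes named after these families, 57 in all, held 0.153% to 0.223% as many counts as the 34 genes.

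Promoters were read from RefSeq (GRCh38.p14) over the 250 bases before the 1 start that its table gives each gene, for the 32 of the 34 genes that matched. That start can lie inside the wider GENCODE 29 gene span, which covers 151 of the 250 bases for TUBB and 244 for TUBA1A. The CCAAT box, a common promoter element, was searched on both strands as CCAAT and stood in 16 of the 32 promoters, against 33.0% of 27305 promoters. The heat shock element motifs GAANNTTC and TTCNNGAA, each counted by itself with overlaps allowed, stood in 3 and in 0 of the 32, against 5.85% and 6.72% of all promoters, and the E-box CACGTG in 1, against 6.49%. These matches describe letters in a window. The promoters of TUBB, which fell, and of TUBA1A, which rose, are shown because these genes moved in opposite directions and both promoters hold CCAAT. They are given 5′ to 3′ on the gene's strand, with CCAAT or its reverse complement in capitals, for TUBB at chr6:30720102-30720351 (plus strand) and for TUBA1A at chr12:49189081-49189330 (minus strand).
TUBB: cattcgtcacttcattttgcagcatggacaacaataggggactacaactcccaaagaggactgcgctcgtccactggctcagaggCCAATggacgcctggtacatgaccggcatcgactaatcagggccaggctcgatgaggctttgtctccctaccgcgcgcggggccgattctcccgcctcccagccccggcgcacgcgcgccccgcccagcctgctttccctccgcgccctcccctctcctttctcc
TUBA1A: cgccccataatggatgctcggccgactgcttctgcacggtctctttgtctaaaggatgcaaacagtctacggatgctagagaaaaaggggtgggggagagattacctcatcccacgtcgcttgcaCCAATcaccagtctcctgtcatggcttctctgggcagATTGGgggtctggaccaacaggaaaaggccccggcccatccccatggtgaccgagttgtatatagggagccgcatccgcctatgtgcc
Counted from the 5′ end of the window, the box begins at base 86 for TUBB, and the boxes of TUBA1A begin at bases 126 and 163.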

How the data were processed

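The authors deposited a table of raw read counts per Ensembl gene, with 6 library columns. The submitters' processing notes name HISAT2 and the build GRCh38. Neither the counting program nor its strand setting or treatment of multiply aligned reads is stated in the labels, which matters for near-identical tubulin copies. Symbols came from the reference name table and coordinates, lengths, overlaps and coding starts from GENCODE 29 (GRCh38). Counts were analysed with edgeR 4.0.16 in R 4.3.3: filterByExpr (minimum count 10, minimum total 15) kept 15846 genes, TMM scaled the libraries, and a robust quasi-likelihood fit with group as the only term compared TPBC-PEG with PBS, with Benjamini-Hochberg adjustment over all genes tested. Calls use an adjusted p below 0.05. SE came from the F statistic. Levels per kilobase had been planned over all annotated exons; the text uses the principal transcript and gives the exon-based values where they change an order. The planned protein features were replaced by coding sequence because no protein table was used here. Alternatives used DESeq2 1.42.0 and limma 3.58.1. Members and lists were chosen with earlier results of these data known. Besides the 34, the text names in each list the 2 largest called changes per direction with a group mean of at least 1 CPM, and otherwise the 2 members with the highest expression; SCAPER, CNOT11 and the untested tubulins were named for their role or count. On simulated counts for a TPBC-PEG against PBS comparison of 15418 genes, 54% of genes changed 1.25-fold, 80% at 1.5-fold and 100% at 2-fold were recovered, and 7 of 174 calls were false. The simulation changed 200 genes, as many up as down, while 5256 of 15846 genes were called in the data. These rates depend on that share and may not hold for the data. Changes smaller than 1.25-fold, such as those of the CCT genes, were not simulated.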

Additional observations from a re-analysis of the deposited data

How the results depend on the processing

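Of the 21 called genes, 15 kept their call in all 17 alternative settings and 6 lost it in at least 1 (TUBB2A, CCT2, CCT4, CCT5, CCT6A and CCT8). Higher calls stayed at 2 and lower calls ran from 14, with the expression-level trend removed, to 20, with the GC trend removed. Lower calls among all genes tested were 2518 and 2971 in these settings, against 2682 in the main fit. The median log2 fold change of the 34 genes was -0.122 with library size alone, -0.089 with the expression-level trend removed, -0.199 with the GC trend removed, and -0.186 to -0.155 when leaving out 1 library. Among the 92 further microtubule genes tested the higher calls were 14 in the main fit and 9 with DESeq2 size factors. They were 8 without a filter, 7 with the DESeq2 test, and 7 to 10 when leaving out 1 library. Among all genes tested they were 2574, 2492, 2287, 1978, and 1987 to 2347, in the same order. Some uncalled genes near 0 turned sign. TUBB2B was 0.0433 with library size alone, 0.00481 with upper quartile scaling, 0.00166 with limma-voom, 0.00418 with the replicate block and 0.0373 with the GC trend removed. With library size alone PFDN5 was 0.0063, PFDN6 0.0225, URI1 0.0349 and TXNDC9 0.00351. With the expression-level trend removed PFDN5 was 0.00892, PFDN6 0.011, MAP4 0.0176 and URI1 0.0244. With the GC trend removed TUBB3 was 0.00517, PFDN4 -0.0477, PFDN6 0.0253 and TTC5 -0.0127, and VBP1 and TBCA were called lower. Leaving out 1 library gave -0.093 to 0.0416 for TUBB2B, -0.265 to 0.0808 for TUBB3, -0.0169 to 0.065 for PFDN4, -0.0863 to 0.0139 for PFDN6, -0.011 to 0.0655 for TTC5, -0.0443 to 0.0261 for URI1 and -0.0784 to 0.0142 for TXNDC9. The cause was not tested. No pairing of libraries by replicate number was seen, though so few libraries cannot exclude it. Correlations of same-numbered deviations were 0.00336, 0.0646 and -0.0154, and those between different numbers ran from -0.0548 to 0.0509. With the replicate number as a block 19 genes were called lower and 2 higher. Low counts limit TUBB3 and TBCE, at about 1 CPM, and TBCE had no value with a filter of 1 CPM in 3 libraries. Both share exons with another gene, so their levels are uncertain.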
